A study of Mus musculus with 10 samples.

Results

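Cadherins and protocadherins are the cell adhesion molecules by which neurons and their progenitors hold on to, and tell apart, their neighbours. Their genes were examined in the forebrain of wild-type mice on embryonic day 15.5, whose dams had eaten 1 of 2 chows. Members were the genes whose symbol starts with Pcdh, or with Cdh followed by a number, without the endothelial cadherin Cdh5. The rule gave 92 of 21225 probe sets, each standing for 1 gene: 58 clustered protocadherins, 12 protocadherins outside the clusters and 22 cadherins. The pelleted chow group was 5 embryos of dams on Teklad 2918 and the powdered chow group 5 embryos of dams on the purified diet Bioserv F3197, each given from the start of breeding. All dams were C57Bl/6J females mated to Ts1Cje males, a Down syndrome model line, and only embryos without the Ts1Cje chromosome change were used, each from a different litter per the study's methods. Each embryo was hybridised to 1 Affymetrix Mouse Gene 1.0 ST array. The labels give animals 05, 07, 09, 11 and 15 for pelleted chow and 87, 88, 108, 111 and 115 for powdered chow. They give no sex and no slide or scan date, so whatever else separates the 2 sets of animals cannot be told apart from the diet. Values are log2 expression values, every difference below is powdered minus pelleted chow on that scale, and values listed per array follow the order of animals just given.

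Classical cadherins bind the same cadherin on the next cell through their outer domains and are tied to actin inside the cell by catenins. Type I members such as N-cadherin and the related type II members are expressed in patches that follow the borders of brain regions. Protocadherins have a different cytoplasmic tail. The clustered ones lie in 3 neighbouring arrays of genes on mouse chromosome 18, named alpha, beta and gamma, and each neuron uses a small set of them, which gives it a surface code that serves self-avoidance of its branches. The choice of promoter in these clusters depends on the DNA-binding protein CTCF and on cohesin. The protocadherins outside the clusters, most of them of the delta groups, are expressed in distinct brain regions and act in axon growth and cell sorting.

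A member is called here where limma gave it an adjusted p below 0.05, with the adjustment made over the whole table of 21225 probe sets. Of the 92 members, 14 rose and 28 fell on powdered chow, 15.2% and 30.4%, while of all probe sets 21.2% rose and 21.8% fell. The median difference was -0.06 over the members and -0.02 over all probe sets. The values of the 2 diets did not overlap for 22 members, or 23.9%, and for 32.6% of all probe sets. At the limits in the study's methods (a change of more than 1.5-fold, with p below 0.001 before and below 0.01 after adjustment), which 8.27% of all probe sets passed, 2 members passed: Pcdhga12, higher on powdered chow, and Pcdh8, lower. In bulk tissue, fewer cells of a type and less RNA per cell cannot be told apart.

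Among the protocadherins outside the clusters the called genes were lower on powdered chow. Of 12 genes, 7 fell by limma (58.3%, against 21.8% of all probe sets), 5 were not called and 0 rose. The counts were the same by the methods' t-test after adjustment, and 0 rose at an unadjusted limma p under 0.05. Their median difference was -0.25, and 10 of the 12 differences were negative, as were those of 11503 of all 21225 probe sets. The 7 were 3 of 5 delta2 genes (Pcdh8, Pcdh10 and Pcdh18), 2 of 4 delta1 genes (Pcdh1 and Pcdh11x), and 2 of the 3 remaining genes (Pcdh15 and Pcdh20). In 4 of the 12 (33.3%, near the 32.6% of all probe sets), Pcdh1, Pcdh8, Pcdh10 and Pcdh18, the diets did not overlap.

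Upstream sequences are shown for 4 members in which the diets did not overlap, Pcdh8, Pcdh18 and Cdh24 from among those that fell and Cdh12 from among those that rose, so that their basal promoter letters can be compared. The RefSeq promoter table (build GRCm38.p6) held 22 of the 92 members, and the 250 bases just before each gene's annotated start were searched for TATAAA on the gene's strand and for CCAAT and GGGCGG on both strands, motifs that do not overlap one another in these sequences. Capitals mark a match, and ATTGG and CCGCCC are the reverse complements of CCAAT and GGGCGG.
Pcdh8, chr14:79771313-79771562, minus strand: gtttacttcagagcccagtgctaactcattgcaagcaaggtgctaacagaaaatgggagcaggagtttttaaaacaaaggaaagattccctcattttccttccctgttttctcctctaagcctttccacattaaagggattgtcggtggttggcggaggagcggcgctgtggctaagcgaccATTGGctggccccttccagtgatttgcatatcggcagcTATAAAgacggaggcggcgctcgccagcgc
Pcdh18, chr3:49757317-49757566, minus strand: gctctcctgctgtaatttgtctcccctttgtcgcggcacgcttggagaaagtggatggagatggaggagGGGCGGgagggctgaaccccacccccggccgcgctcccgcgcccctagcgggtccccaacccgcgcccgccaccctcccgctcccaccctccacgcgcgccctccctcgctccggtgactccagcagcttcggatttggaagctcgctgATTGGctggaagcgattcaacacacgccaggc
Cdh24, chr14:54641365-54641614, minus strand: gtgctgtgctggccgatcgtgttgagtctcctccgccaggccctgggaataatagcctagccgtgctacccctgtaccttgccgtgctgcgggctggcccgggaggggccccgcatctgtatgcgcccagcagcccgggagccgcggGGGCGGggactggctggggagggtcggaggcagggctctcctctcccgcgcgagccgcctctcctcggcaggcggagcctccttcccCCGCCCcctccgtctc
Cdh12, chr15:21111202-21111451, plus strand: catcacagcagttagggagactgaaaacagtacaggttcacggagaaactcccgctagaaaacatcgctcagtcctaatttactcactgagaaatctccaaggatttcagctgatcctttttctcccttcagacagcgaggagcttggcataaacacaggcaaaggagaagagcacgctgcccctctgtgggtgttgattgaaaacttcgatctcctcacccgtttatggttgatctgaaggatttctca
Pcdh8 held a TATAAA at position -30, counted from the start site, and an ATTGG at -68. Pcdh18 held an ATTGG at -32 and a GGGCGG at -181. Cdh24 held a GGGCGG at -103 and a CCGCCC at -16, and none of the 3 motifs was found in the Cdh12 window. The Cdh24 and Pcdh18 windows were 72.8% and 68.0% G and C with 22 and 23 CpG dinucleotides, and those of Pcdh8 and Cdh12 were 51.2% and 46.8% with 11 and 7. Among the 22 members TATAAA was found in 2 (9.09%, against 8.94% of 27025 genes), CCAAT in 14 (63.6%, against 37.5%) and GGGCGG in 9 (40.9%, against 35.4%). These are matches of letters, and binding at them was not measured.

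Pcdh8, an activity-regulated delta2 protocadherin that in rat neurons draws N-cadherin from the surface, had the largest fall of the 92 members. Its array values were 8.67, 8.94, 9.04, 9.12 and 9.08 on pelleted chow and 8.28, 8.25, 8.30, 8.29 and 8.24 on powdered chow. Every powdered array lay below every pelleted array, and the 5 powdered values ran only from 8.24 to 8.30. The means were 8.97 ± 0.18 on pelleted chow and 8.27 ± 0.03 on powdered chow (SD, n = 5), a difference of -0.70 (SE 0.08, limma adjusted p = 1.01e-05), or a 1.62-fold lower level.

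Pcdh10 and Pcdh18 fell without overlap too. Pcdh10, which guides growing striatal axons, gave 10.17, 10.28, 10.33, 10.41 and 10.34 on pelleted chow and 10.02, 9.94, 10.02, 10.08 and 10.01 on powdered chow. The means were 10.31 ± 0.09 on pelleted chow and 10.01 ± 0.05 on powdered chow (SD, n = 5), a difference of -0.29 (SE 0.06, limma adjusted p = 0.000913). For Pcdh18, another delta2 gene, the values were 9.66, 9.95, 10.15, 9.90 and 9.92 on pelleted chow and 9.53, 9.44, 9.52, 9.61 and 9.61 on powdered chow. Its lowest pelleted array, animal 05, lay just above the highest powdered arrays. The means were 9.92 ± 0.17 on pelleted chow and 9.54 ± 0.07 on powdered chow (SD, n = 5), a difference of -0.37 (SE 0.08, limma adjusted p = 0.00176). The other delta2 genes were not called: Pcdh17, which acts at synapses of the circuit between cortex and basal ganglia, differed by 0.09 (SE 0.07, adjusted p = 0.309), and Pcdh19, an X-linked gene whose human form is mutated in a female-limited epilepsy, by -0.10 (SE 0.08, adjusted p = 0.296). Without pelleted animal 05, Pcdh19 was called lower, by -0.17 with a limma adjusted p of 0.0245. It was not called in the other 9 fits that left out 1 array.

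Among delta1 genes, the X-linked Pcdh11x gave 10.11, 10.56, 10.76, 10.85 and 10.64 on pelleted chow and 10.11, 10.11, 10.19, 10.17 and 10.17 on powdered chow. The powdered arrays lay close together, and only pelleted animal 05 overlapped them. The means were 10.58 ± 0.29 on pelleted chow and 10.15 ± 0.04 on powdered chow (SD, n = 5), a difference of -0.43 (SE 0.11, limma adjusted p = 0.00627). Pcdh1, also known from epithelia and vessels, gave 7.14, 7.25, 7.21, 7.61 and 7.37 on pelleted chow and 7.00, 7.08, 7.11, 6.89 and 6.75 on powdered chow. Each powdered array was below each pelleted array, by a narrow gap between animals 05 and 108. The means were 7.32 ± 0.18 on pelleted chow and 6.97 ± 0.14 on powdered chow (SD, n = 5), a difference of -0.35 (SE 0.09, limma adjusted p = 0.00793). Pcdh9 differed by -0.10 (SE 0.07, adjusted p = 0.254) and Pcdh7 by 0.13 (SE 0.07, adjusted p = 0.149), and neither was called.

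Pcdh15, a component of the tip links of hair cells, gave 8.07, 7.99, 8.21, 8.36 and 8.21 on pelleted chow and 7.87, 7.71, 7.91, 8.05 and 7.95 on powdered chow. The groups overlapped through animals 07 and 111. The means were 8.17 ± 0.14 on pelleted chow and 7.90 ± 0.12 on powdered chow (SD, n = 5), a difference of -0.27 (SE 0.08, limma adjusted p = 0.0141). Pcdh20 fell by 0.23 (SE 0.06, limma adjusted p = 0.0117). The vascular gene Pcdh12 differed by -0.01 (SE 0.06, adjusted p = 0.908).

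**Figure D1:**
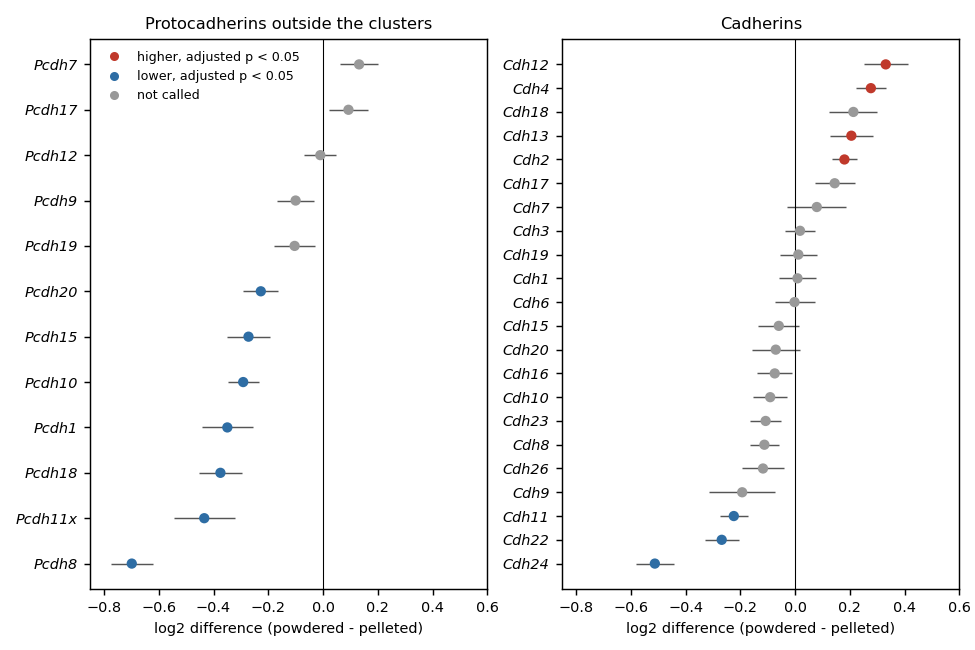
Difference in log2 expression value between powdered and pelleted chow (horizontal axis) for each protocadherin outside the clusters (left) and each cadherin (right), with bars for the limma standard error over 5 arrays per diet. On the left, 7 genes are marked lower and 0 higher, and on the right 4 are marked higher and 3 lower.

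The clustered protocadherins moved both ways. Of 58 genes, 10 rose (17.2%) and 18 fell (31.0%), against 21.2% and 21.8% of all probe sets. The diets did not overlap in 12 (20.7%, against 32.6% of all probe sets). Their median difference was -0.03, close to that of all probe sets, but the median size of the difference regardless of sign was 0.25, against 0.17 over all probe sets. The arrays of one diet were further apart as well: the median SD within a diet was 0.16 for the clustered genes and 0.11 for all probe sets. These genes are close copies of one another, and which of their probes could bind a neighbour's transcript was not analysed here, so a value can hold signal from more than 1 gene of a cluster.

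The alpha cluster genes consist of alternate genes and, at the end, 2 C-type genes, each of which is spliced to the same constant exons. Of the 12 alternate alpha genes, 3 rose (Pcdha3, Pcdha4 and Pcdha12), a share near the 21.2% of all probe sets. Only 1 fell (Pcdha2), against 21.8% of all probe sets. The difference was positive in 10 of the 12, against 9722 of all 21225 probe sets, and their median was 0.19. Pcdha2 gave 9.05, 9.31, 9.43, 9.07 and 9.36 on pelleted chow and 8.66, 8.68, 8.66, 8.56 and 8.83 on powdered chow. All 5 powdered arrays were below all 5 pelleted arrays, and the means were 9.24 ± 0.17 on pelleted chow and 8.68 ± 0.10 on powdered chow (SD, n = 5), a difference of -0.56 (SE 0.08, limma adjusted p = 9.99e-05). Pcdha4 rose by 0.30, Pcdha3 by 0.29 and Pcdha12 by 0.25, with limma adjusted p-values of 0.0132, 0.0491 and 0.0195, and in each of the 3 the diets overlapped. The count of 3 rises fell to 1 without powdered animal 115 and to 0 without pelleted animals 05 and 07 together.

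The C-type genes, in contrast to the alternate genes, are not picked at random by each neuron. Their differences were negative in 5 of 5, against 11503 of all 21225 probe sets, with a median of -0.29. Of the 5, 3 fell (Pcdhac1, Pcdhac2 and Pcdhgc4), against 21.8% of all probe sets, and 0 rose, against 21.2%. The count of rises was also 0 at an unadjusted limma p under 0.05 and by the methods' t-test. Without 1 array at a time the count of falls was 2 to 4. Pcdhac1 gave 7.91, 7.85, 7.97, 7.49 and 8.22 on pelleted chow and 6.96, 7.13, 7.53, 7.61 and 7.31 on powdered chow. Its groups overlapped through pelleted animal 11 and powdered animals 108 and 111, and the means were 7.89 ± 0.26 on pelleted chow and 7.31 ± 0.27 on powdered chow (SD, n = 5), a difference of -0.58 (SE 0.14, limma adjusted p = 0.00445).

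Pcdhac2, which serotonergic neurons need to spread their axons evenly, gave 9.84, 9.84, 10.10, 9.88 and 9.86 on pelleted chow and 9.59, 9.52, 9.60, 9.54 and 9.43 on powdered chow. The diets did not overlap, and the means were 9.90 ± 0.11 on pelleted chow and 9.54 ± 0.07 on powdered chow (SD, n = 5), a difference of -0.37 (SE 0.06, limma adjusted p = 0.000374). Pcdhgc4, needed for the survival of cortical interneurons, gave 9.30, 9.34, 9.24, 9.12 and 9.27 on pelleted chow and 9.16, 8.99, 9.11, 8.82 and 9.11 on powdered chow. These values overlapped, and the difference was -0.22 (SE 0.07, limma adjusted p = 0.026). Pcdhgc5 gave 9.11, 8.69, 8.72, 9.25 and 8.85 on pelleted chow and 8.67, 8.51, 8.59, 8.55 and 8.86 on powdered chow. It missed the call with a difference of -0.29 (SE 0.11, limma adjusted p = 0.0507), as did Pcdhgc3 with -0.07 (SE 0.07, adjusted p = 0.461).

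The beta cluster genes have a single exon each and no constant exons. Of these 22 genes, 10 fell (45.5%, against 21.8% of all probe sets) and 2 rose (9.09%, against 21.2%). Their median difference was -0.25. The methods' t-test, adjusted likewise, called 6 falls and 1 rise. The differences of 16 of the 22 were negative, as were those of 11503 of all 21225 probe sets. The genes that fell in limma were Pcdhb4, Pcdhb8, Pcdhb9, Pcdhb11, Pcdhb12, Pcdhb13, Pcdhb15, Pcdhb17, Pcdhb18 and Pcdhb19, and those that rose were Pcdhb5 and Pcdhb7. Pcdhb11 gave 7.22, 6.98, 7.56, 7.47 and 7.31 on pelleted chow and 6.82, 6.75, 6.68, 7.21 and 6.77 on powdered chow. Powdered animal 111 lay among the pelleted values and the other 4 powdered animals below all of them, and the means were 7.31 ± 0.23 on pelleted chow and 6.84 ± 0.21 on powdered chow (SD, n = 5), a difference of -0.46 (SE 0.12, limma adjusted p = 0.00596).

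Pcdhb9, whose mean of 6.36 over the 10 arrays was under the lower quartile of all probe sets (6.42), gave 6.30, 6.80, 6.74, 6.70 and 6.63 on pelleted chow and 6.12, 5.77, 5.75, 6.53 and 6.27 on powdered chow. The groups overlapped, and the means were 6.64 ± 0.20 on pelleted chow and 6.09 ± 0.33 on powdered chow (SD, n = 5), a difference of -0.55 (SE 0.14, limma adjusted p = 0.00732). The other 8 falls ran from -0.45 in Pcdhb18 to -0.20 in Pcdhb15, with adjusted p-values between 0.000587 in Pcdhb8 and 0.0471 in Pcdhb12. Pcdhb5 rose by 0.33 (SE 0.06, limma adjusted p = 0.00069) and Pcdhb7 by 0.32 (SE 0.10, adjusted p = 0.0223). Only 4 of the 22 had no overlap between the diets (18.2%, against 32.6% of all probe sets): Pcdhb5, Pcdhb8, Pcdhb13 and Pcdhb18.

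The gamma cluster held the largest change of the 92 members. Pcdhga12, the last of its gamma A genes, gave 8.68, 8.43, 8.29, 8.59 and 7.95 on pelleted chow and 9.33, 9.47, 9.33, 9.49 and 9.40 on powdered chow. The 5 powdered arrays were all above the 5 pelleted ones, which themselves ran from 7.95 to 8.68. The means were 8.39 ± 0.29 on pelleted chow and 9.40 ± 0.08 on powdered chow (SD, n = 5), a difference of 1.01 (SE 0.11, limma adjusted p = 1.04e-05), or a 2.02-fold higher level. Of 22 gamma genes, 5 rose (22.7%) and 5 fell (22.7%), near the 21.2% and 21.8% of all probe sets. Their median difference was 0.04.

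Of the first 10 gamma A and B genes in chromosomal order, 4 fell (Pcdhga1, Pcdhga2, Pcdhga4 and Pcdhga6) and 2 rose (Pcdhgb2 and Pcdhgb4). Their differences were positive in 5 and negative in 5, with a median of 0.0046. Of the later 9, 3 rose (Pcdhga9, Pcdhgb6 and Pcdhga12) and 0 fell, also at an unadjusted p under 0.05, with a median difference of 0.15. This split was made after the values were seen and was not tested, so these counts cannot show that direction follows position. It also mixes the 2 types, and the 4 falls were all gamma A genes. All 7 gamma B genes had a positive difference, with a median of 0.23. By limma 3 rose (42.9%, against 21.2% of all probe sets): Pcdhgb2, Pcdhgb4 and Pcdhgb6. The methods' t-test called 2 rises. Over the 10 limma fits that each left out 1 array the rises were 2 to 5. The 5 came only without pelleted animal 05, the highest of its diet in 12 of 22 gamma genes. None fell, at an unadjusted p under 0.05 either.

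Pcdhgb4 gave 8.48, 8.13, 8.44, 8.53 and 8.16 on pelleted chow and 8.60, 8.79, 9.03, 8.87 and 8.79 on powdered chow. Each powdered array was above each pelleted array, by a narrow gap between animals 11 and 87, and the means were 8.35 ± 0.19 on pelleted chow and 8.82 ± 0.16 on powdered chow (SD, n = 5), a difference of 0.47 (SE 0.10, limma adjusted p = 0.00142). Pcdhga9 rose by 0.39 (SE 0.06, limma adjusted p = 0.000158) and Pcdhgb6 by 0.32 (SE 0.06, adjusted p = 0.000635), each without overlap. Pcdhgb2 rose by 0.23 (adjusted p = 0.046), with overlap. At the start of the cluster Pcdhga1 fell by 0.41 and Pcdhga2 fell by 0.40, and further along Pcdhga6 fell by 0.31 and Pcdhga4 by 0.18, with adjusted p-values of 0.000483, 0.00114, 0.0112 and 0.0361.

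**Figure D2:**
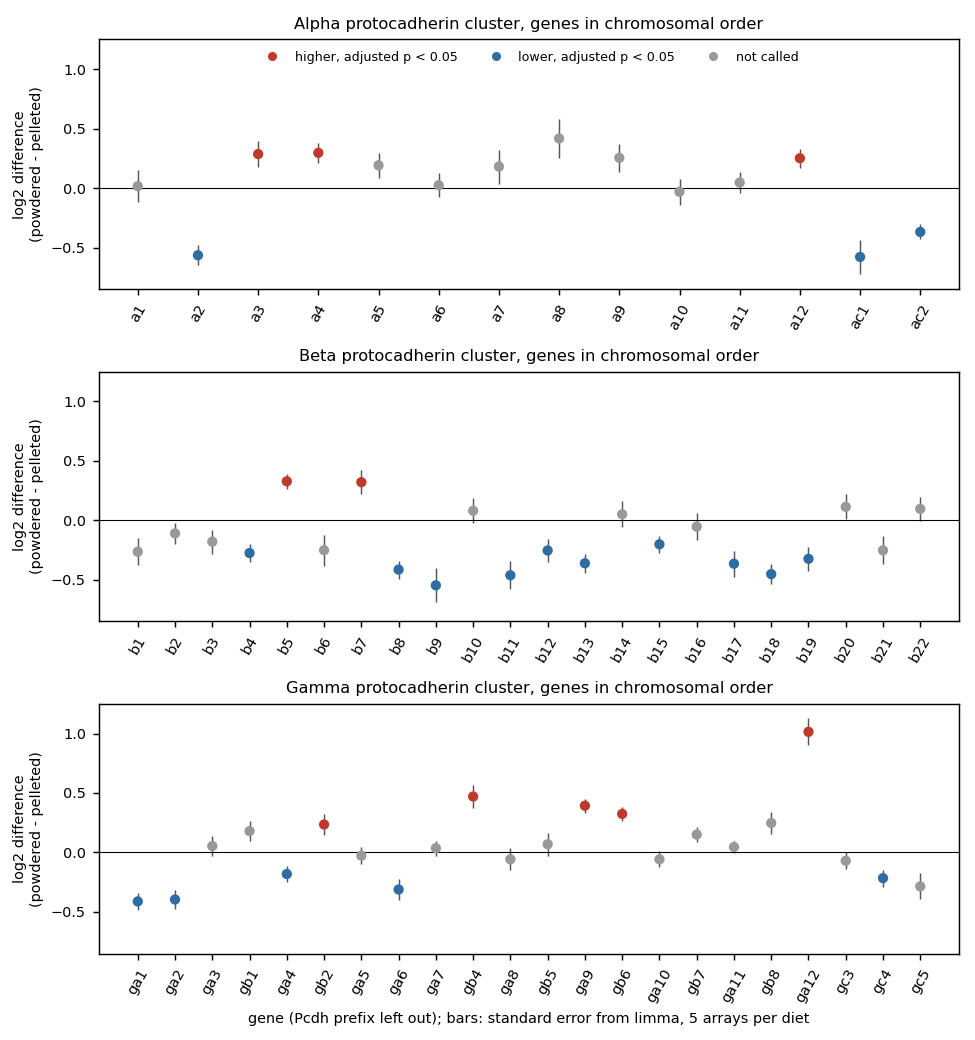
Difference in log2 expression value between powdered and pelleted chow (vertical axis) for each gene of the alpha, beta and gamma clusters, set out in chromosomal order, with bars for the limma standard error over 5 arrays per diet. The 5 C-type genes at the ends of the alpha and gamma panels lie below 0, 16 of the 22 beta genes lie below 0, and Pcdhga12 stands at 1.01.

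The cadherins were split and mostly not called. Of 22 genes, 4 rose (18.2%, against 21.2% of all probe sets), 3 fell (13.6%, against 21.8%) and 15 were not called. Their median difference was -0.03. In 6 of the 22 (27.3%, against 32.6% of all probe sets) the diets did not overlap. Of these, Cdh2, Cdh4 and Cdh12 rose and Cdh11, Cdh22 and Cdh24 fell. The 5 type I genes held 2 rises and 0 falls, also at an unadjusted p under 0.05. The 12 type II genes held 1 rise and 3 falls, a share of falls near the 21.8% of all probe sets. Whether the 2 types differ in direction was not tested. The remaining rise was Cdh13, which is outside both types.

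Cdh2, N-cadherin, which joins radial glia at the ventricular surface, gave 12.12, 12.13, 12.15, 12.13 and 12.12 on pelleted chow and 12.32, 12.33, 12.28, 12.31 and 12.32 on powdered chow. Both groups were tight, with SDs of 0.01 and 0.02, and did not overlap. Its difference was 0.18 (SE 0.04, limma adjusted p = 0.00498). Cdh4, R-cadherin, a type I cadherin of the embryonic cortex, gave 10.79, 10.94, 10.85, 11.02 and 10.88 on pelleted chow and 11.15, 11.18, 11.17, 11.21 and 11.16 on powdered chow. The means were 10.90 ± 0.09 on pelleted chow and 11.17 ± 0.02 on powdered chow (SD, n = 5), without overlap, a difference of 0.28 (SE 0.05, limma adjusted p = 0.000994).

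Cdh24, a type II cadherin, had the largest difference of the class. Its values were 9.20, 9.37, 9.26, 9.43 and 9.14 on pelleted chow and 8.67, 8.77, 8.91, 8.81 and 8.69 on powdered chow. No powdered array reached the pelleted range, and the means were 9.28 ± 0.12 on pelleted chow and 8.77 ± 0.09 on powdered chow (SD, n = 5), a difference of -0.51 (SE 0.07, limma adjusted p = 5.22e-05). Cdh12, a type II cadherin of brain, gave 8.83, 9.25, 9.28, 9.24 and 9.17 on pelleted chow and 9.56, 9.50, 9.47, 9.44 and 9.46 on powdered chow. All powdered arrays were above all pelleted ones, among which animal 05 was far below the others. The means were 9.15 ± 0.19 on pelleted chow and 9.49 ± 0.05 on powdered chow (SD, n = 5), a difference of 0.33 (SE 0.08, limma adjusted p = 0.00479), and without animal 05 the difference was 0.25.

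Cdh22, known from pituitary and brain, gave 8.34, 8.41, 8.56, 8.54 and 8.50 on pelleted chow and 8.07, 8.20, 8.28, 8.22 and 8.24 on powdered chow. The means were 8.47 ± 0.09 on pelleted chow and 8.20 ± 0.08 on powdered chow (SD, n = 5), without overlap, a difference of -0.27 (SE 0.06, limma adjusted p = 0.00314). Cdh11, found in mesenchyme and in brain, gave 10.88, 10.82, 10.84, 10.92 and 11.00 on pelleted chow and 10.68, 10.64, 10.68, 10.71 and 10.65 on powdered chow. Here too the groups were apart, with means of 10.89 ± 0.07 on pelleted chow and 10.67 ± 0.03 on powdered chow (SD, n = 5), a difference of -0.22 (SE 0.05, limma adjusted p = 0.00314).

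Cdh13, T-cadherin, which is held in the membrane by a lipid anchor and has no cytoplasmic tail, gave 10.37, 10.73, 10.74, 10.78 and 10.65 on pelleted chow and 10.93, 10.91, 10.89, 10.74 and 10.82 on powdered chow. The values overlapped, the difference was 0.21 (SE 0.08, limma adjusted p = 0.0469), and the call was lost in 8 of the 10 fits that left out 1 array, with an adjusted p of up to 0.102. Cdh6, which marks the lateral ganglionic eminence beside the cortex, differed by -0.0021 (SE 0.07, adjusted p = 0.985), and Cdh8, patterned across the cortex, by -0.11 (SE 0.05, adjusted p = 0.108). The epithelial cadherin Cdh1 differed by 0.0087 (SE 0.07, adjusted p = 0.932). Neither direction is settled for Cdh1, whose sign turned with quantile normalisation and with array weights. The other cadherins that were not called ran from -0.19 in Cdh9 (adjusted p = 0.221) to 0.21 in Cdh18 (adjusted p = 0.0667).

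**Figure D3:**
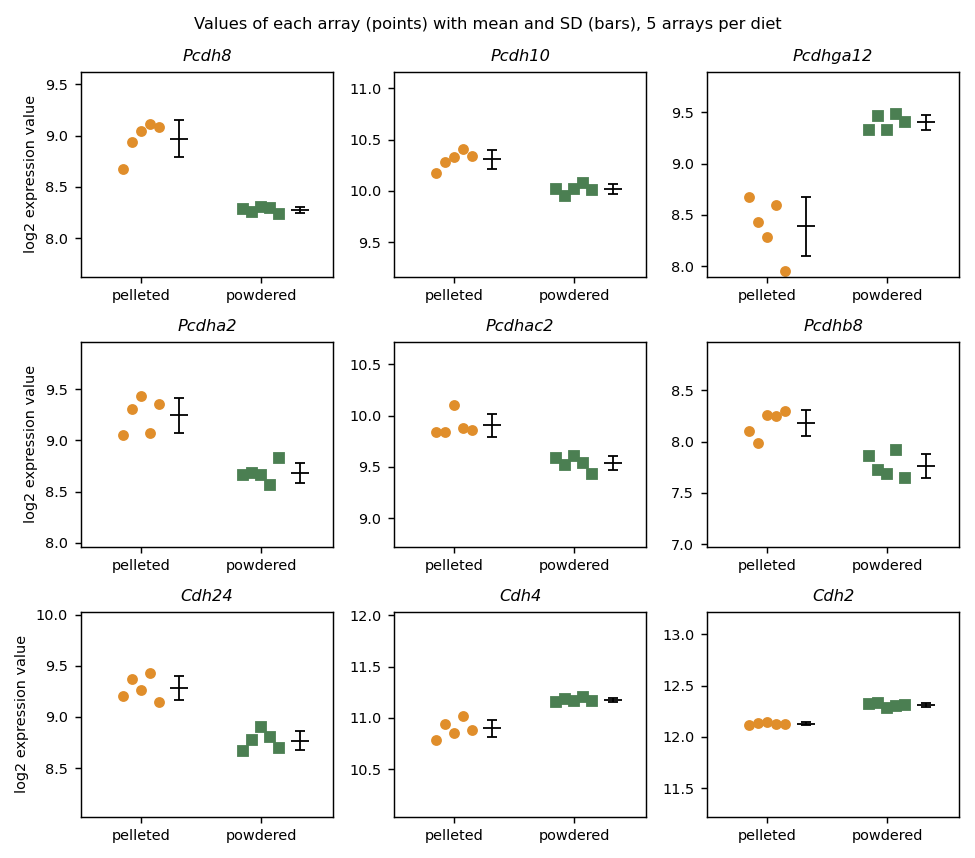
Log2 expression value of each array (points) with the mean and SD (bars) in pelleted and powdered chow embryos, n = 5 per diet, for 9 members whose diets did not overlap; each vertical axis covers the same span of 2 log2 units around its own centre. The SD of Pcdh8 is 0.18 on pelleted and 0.03 on powdered chow, and Cdh2 shows the tightest groups.

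Single animals stood apart from the rest of their diet over many members. Pelleted animal 05 had the lowest value of its diet in 16 of 22 beta genes (72.7%), in 10 of 12 protocadherins outside the clusters (83.3%) and in 9 of 12 type II cadherins (75.0%), against 27.3% of all probe sets. In the gamma cluster the same animal was instead highest in 12 of 22 genes (54.5%, against 30.7% of all probe sets). Powdered animal 111 was the highest of its diet in 14 of 22 beta genes (63.6%, against 24.6%), and animal 88 the lowest in 8 of 12 protocadherins outside the clusters (66.7%, against 19.2%). Calls were therefore counted without animal 05. They were also counted without animals 05 and 07 together, a pair chosen after the data were seen. Animal 07 was the lowest of its diet in 5 of 22 beta genes (22.7%) and 1 of 12 protocadherins outside the clusters (8.33%), against 19.2% of all probe sets. Without animal 05, beta genes numbered 2 rises and 13 falls, and protocadherins outside the clusters 0 rises and 8 falls. Animal 05 was picked for its low values in these same genes. Leaving it out raises their pelleted means, so the added falls say nothing on whether the falls hold. Powdered animal 88 was the lowest of its diet in 10 of 22 beta genes. Without it the beta genes numbered 2 rises and 7 falls, and the protocadherins outside the clusters 0 and 7. Without animals 05 and 07 together the beta genes numbered 1 rise and 14 falls, the gamma genes 7 and 3, and the protocadherins outside the clusters 0 and 8. The falls of beta genes ranged from 7 to 13 over the 10 fits that each left out 1 array, 13 without animal 05 and 7 without animal 09 among them.

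**Figure D4:**
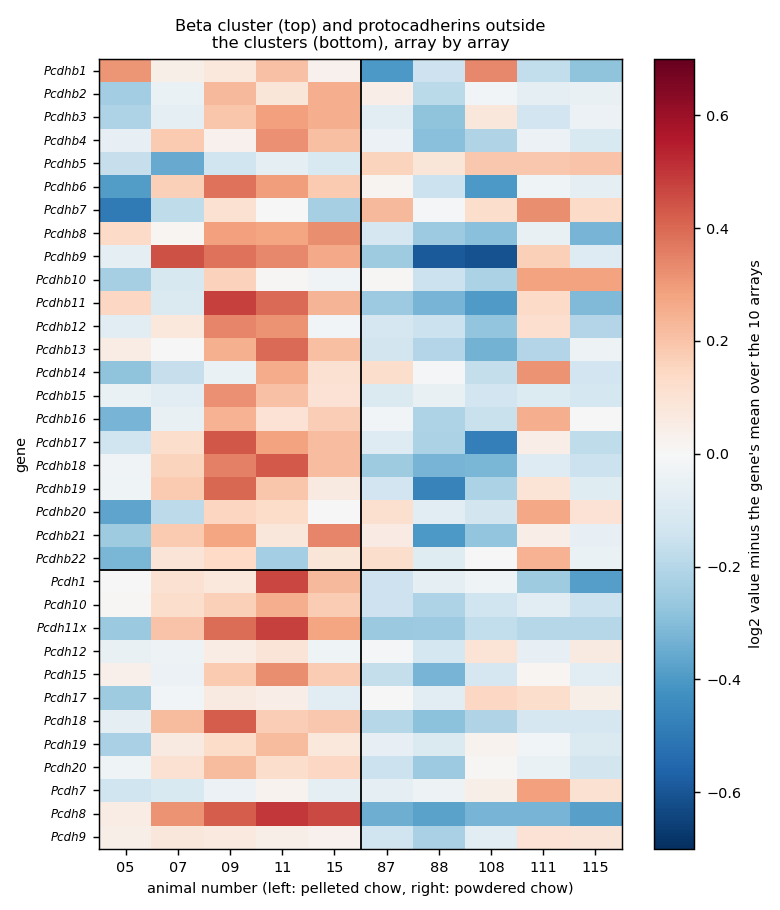
Log2 expression value minus the gene's mean over the 10 arrays (colour scale) for the 22 beta genes in chromosomal order (top) and the 12 protocadherins outside the clusters (bottom), with 1 column per animal, pelleted chow on the left. The column of animal 05 is paler or bluer than the other pelleted columns in most rows, and Pcdh8 is red in the pelleted and blue in the powdered columns.

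The calls of 10 members were lost in some of the fits that left out 1 array. With 1 array left out at a time, the call was lost in 8 of 10 fits for Cdh13, Pcdhb15 and Pcdhgb2, in 7 for Pcdhb12 and Pcdhga4, in 6 for Pcdha3, in 4 for Pcdhgc4 and in 2 for Pcdha12, Pcdhb19 and Pcdhb7. The highest adjusted p in these fits was 0.110 for Pcdhgb2, 0.120 for Pcdhb12, 0.123 for Pcdha3 and 0.105 for Pcdhb15. The sign of the difference held in these fits for each of the 10, as in Cdh13 (0.14 to 0.24), Pcdhgb2 (0.20 to 0.31) and Pcdhb15 (-0.15 to -0.25). For Pcdha12 the call was lost without animals 15 or 115, for Pcdhb19 without 09 or 88, for Pcdhb7 without 15 or 111, and for Pcdhgc4 without 07, 15, 88 or 111. The other 32 called members were called in each of the 10 fits, though Pcdha4 among them lost its call without pelleted animals 05 and 07 together.

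Genes that work with these molecules were counted from lists written by hand. Of all probe sets, 21.2% rose and 21.8% fell. Among 20 genes that regulate promoter choice in the protocadherin clusters, 14 rose (70.0%) and 2 fell (10.0%), with a median difference of 0.44. The lowest p-values belonged to the cohesin subunits Smc3 (1.11), Smc1a (0.91) and Stag1 (0.75) and to Nipbl (0.96), which loads cohesin on DNA. Ctcf, picked out after its value was seen, rose by 0.54, and the 2 that fell were the histone methyltransferase Setdb1, at -0.25, and Mau2, the partner of Nipbl, at -0.14.

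Among 19 catenins and partners at the adherens junction 6 rose (31.6%, against 21.2% of all probe sets) and 3 fell (15.8%, against 21.8%). Their median was 0.0014. Ctnna1, the catenin that links the complex to actin, rose by 0.45, the actin crosslinker Actn4 by 0.32 and the nectin partner Afdn by 0.38, while Numbl fell by 0.39. Of 24 other members of the cadherin superfamily 5 rose (20.8%) and 3 fell (12.5%), both under those shares, with a median of -0.08. Celsr1, an atypical cadherin of planar cell polarity, rose by 0.52 and the giant cadherin Fat3 by 0.28, and the synaptic calsyntenin Clstn3 fell by 0.47 and the desmosomal Dsc3 by 0.44. Of 14 proteases that cut cadherins or act in the same cleavage 5 rose (35.7%) and 5 fell (35.7%), with a median of 0.0074. Adam15 (-0.67) and Psen2 (-0.50) were lower, and Ncstn (0.34) and Mmp14 (0.32) higher. Of 18 signalling partners of protocadherins 5 rose (27.8%) and 6 fell (33.3%), with a median of -0.03. Brk1, a subunit of the WAVE complex that builds branched actin, stood at -1.14, its complex partner Abi1 at 0.26, the phosphatase subunit Ppp1ca at 0.62 and Pdcd10 at 0.51.

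Some marker lists of tissue and cell types held called genes in one direction, while 43.1% of all probe sets were called in either. Of 7 forebrain markers 4 rose and 0 fell, and the mean of the list ran from 9.83 to 10.06 on pelleted and from 10.14 to 10.27 on powdered chow. Of 6 midbrain and hindbrain markers 0 rose and 2 fell (means 6.65 to 7.13 and 6.52 to 6.78), of 7 meningeal and fibroblast markers 4 rose and 0 fell (8.48 to 8.69 and 8.76 to 8.91), and of 6 genes of dividing cells 5 rose and 0 fell (8.47 to 8.89 and 9.26 to 9.50). In these lists the counts of 0 were also 0 at an unadjusted limma p under 0.05. Radial glia markers gave 1 rise and 3 falls of 7 (10.52 to 10.68 and 10.35 to 10.49), and neuronal markers 3 rises and 1 fall of 7 (11.71 to 11.85 and 11.87 to 11.98). Counts of rises and falls were 3 and 1 of 8 for endothelium, 1 and 2 of 6 for choroid plexus, 1 and 0 of 6 for erythroid cells, 2 and 2 of 7 for microglia and 1 and 1 of 4 for thalamus. The table carries no detection calls, so none of these markers can be called absent, and the part of cell composition or dissection in the changes of cadherins and protocadherins was not tested.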

How the data were processed

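Forebrain RNA of 10 embryos was measured on 1 array each, 5 per diet, and the titles gave each sample's diet. The deposited table holds log2 expression values, which the authors computed from the scanned arrays with RMA (named in the submitters' processing notes) and a custom probe definition, version 15, with 1 probe set per Entrez gene. The scanner files were not used. Of 21225 probe sets 20239 had a symbol, and all 92 members carried the same symbol in RefSeq. Lower quartiles of the arrays ran from 6.33 to 6.53. The number of arrays limits the precision: the median standard error of a difference was 0.07.

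Diets were compared with limma 3.58.1 in R 4.3.3 (lmFit and eBayes, no covariates, Benjamini-Hochberg adjustment over all probe sets). Tables were made in Python 3.11.15. The fit was tested on simulated data. The members and gene lists were chosen with earlier results of these data known. In each class the 6 called members with the largest difference were given array by array. Other called members were given by their difference or, for some beta genes, by a range of differences. A further list of 13 members, written down for a role in forebrain, was given whether called or not. It held the epithelial cadherin Cdh1. In the lists of partner genes up to 4 called genes with the lowest p were named, and marker lists were given as counts. Alternatives were the methods' t-test and limits, array weights, quantile and median normalisation, filters on dim probe sets, and leaving out single arrays or animals 05 and 07.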

Additional observations from a re-analysis of the deposited data

Results flagged for a closer look

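Of the 48 members tested, each in both diets (96 groups), 7 groups held an array far from the other 4 by Dixon's criterion, which chance alone meets in about 1 in 20 groups. Of the 7, 3 were in pelleted animal 05. In that animal Cdh6 stood at 9.38 (others 9.64 to 9.72), Cdh12 at 8.83 (others 9.17 to 9.28) and Pcdhgb2 at 9.16 (others 8.71 to 8.84), so that the first 2 were low and the last high. In powdered animal 88 Cdh6 was low as well, at 9.45 (others 9.62 to 9.67). Pcdhac2 was high in pelleted animal 09, at 10.1 (others 9.84 to 9.88), Pcdhb11 was high in powdered animal 111, at 7.21 (others 6.68 to 6.82), and Cdh1 was high in powdered animal 87, at 7.998 (others 7.87 to 7.91).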

How the results depend on the processing

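Most counts held within 1.5 times of those reported. At the limits in the study's methods they fell: 1 clustered protocadherin was higher and 0 lower, 0 other protocadherins were higher and 1 lower, and 0 cadherins were higher or lower. Array weights gave 6 lower cadherins in place of 3. The methods' t-test gave 7 higher and 14 lower clustered protocadherins, 0 and 7 other protocadherins, and 3 and 3 cadherins. Pcdha3, Pcdhb7, Pcdhb12, Pcdhb15, Pcdhb17, Pcdhb19, Pcdhgb2 and Cdh13 were not called by it. With 1 array left out at a time, 7 to 12 clustered protocadherins were higher and 13 to 20 lower (median difference -0.04 to 0.01), 0 other protocadherins were higher and 7 to 8 lower (median -0.28 to -0.21), and 3 to 4 cadherins were higher and 3 to 4 lower (median -0.05 to -0.01). The median of the clustered genes turned positive without powdered animal 88 (0.01) and without the probe sets dimmer than the median (0.02), and that of the cadherins turned positive in the latter (0.0087). Of the members named, Cdh1 reversed with array weights (-0.028) and quantile normalisation (-0.0019) and ran from -0.0387 to 0.0446 over arrays left out, and Cdh6 ran from -0.0617 to 0.0392. The cause was not tested. Filters on dim probe sets removed 5 members (Pcdhb9 among them) with the lower quartile as the limit and 29 with the median. No paired analysis was possible because the animal numbers of the 2 diets do not overlap.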
